A study of Rattus norvegicus with 30 samples.

Results

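Klf7 and 9 other genes of the Krüppel-like factor family were followed through the transcriptomic response of primary rat hippocampal neurons to cannabidiol (CBD) and to 2 fumarates, dimethyl fumarate (DMF) and its relative monomethyl fumarate (MMF). The 10 genes, of 21993 in the deposited tables, were taken by their symbols: Klf3, Klf6, Klf7, Klf8, Klf9, Klf10, Klf11, Klf12, Klf13 and Klf16. The set was picked because Klf7 was lower after 4 h of DMF, so the DMF and DMSO libraries of 4 h, and every comparison that uses them, are given below as a description with no test. Hippocampal cells of wild-type Wistar rat embryos of day 18 were grown for 7 days and then exposed for 4 or 24 h to DMF at 30 µM, MMF at 30 µM, or the vehicle of both, dimethyl sulfoxide (DMSO), or to CBD at 6 µM or its vehicle, ethanol (EtOH). DMF is the diester of fumaric acid with methanol, MMF is the monoester formed from it by hydrolysis, and CBD is a non-psychotropic cannabinoid of Cannabis sativa. All cultures held vehicle at 0.2%, no untreated culture was analysed here, and each of the 10 groups had 3 poly(A) RNA-seq libraries, one from each of 3 independent experiments. Libraries with the same replicate number in their titles were taken as the same experiment, which the titles do not state. Whether the experiments used separate litters was not given in the sources used here. The libraries held between 15108132 and 25367834 reads on genes, with a median of 20088658.

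Krüppel-like factors are transcription factors that bind GC-rich and CACCC sequences through a run of zinc fingers at their carboxyl end, while the rest of the protein decides whether a target gene is activated or repressed. Klf6 and Klf7 are closely related activators that favour axon outgrowth in the central nervous system. Klf3, Klf8 and Klf12 recruit the corepressor CtBP, and Klf9, Klf10, Klf11, Klf13 and Klf16 recruit Sin3A with its histone deacetylases. Within the last branch, Klf9 responds to glucocorticoids and limits neurite growth, and Klf10 and Klf11 were first known as early genes of the TGF-beta response.

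The upstream sequences of Klf7 and Klf6 are shown because these members of 1 branch were the lowest with DMF at 4 h. The 250 bases before the annotated start were read from RefSeq (assembly GRCr8, which is not the mRatBN7.2 build of the count files) for 7 of the 10 genes. Klf10, Klf13 and Klf16 were not matched. Both sequences lie on the minus strand, and capitals mark matches, on either strand, to the letters CCAAT (the CCAAT box), GGGCGG (the GC box), CACCC (the core of a Krüppel-like factor site) and TGACNNNGC (the core of an antioxidant response element, the site of the transcription factor Nrf2); no 2 capital stretches overlap. For Klf7 the 139 bases outside the annotated gene are given, at chr9:73020168-73020306, and for Klf6 the 250 bases at chr17:69458479-69458728.
Klf7: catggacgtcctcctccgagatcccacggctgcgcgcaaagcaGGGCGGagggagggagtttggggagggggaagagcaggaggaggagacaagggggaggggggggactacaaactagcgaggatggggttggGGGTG
Klf6: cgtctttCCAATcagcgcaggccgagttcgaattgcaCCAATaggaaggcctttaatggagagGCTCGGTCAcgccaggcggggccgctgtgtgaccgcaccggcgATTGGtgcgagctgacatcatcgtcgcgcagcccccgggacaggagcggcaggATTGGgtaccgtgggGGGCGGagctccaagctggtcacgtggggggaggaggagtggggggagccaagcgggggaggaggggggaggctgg
The Klf6 sequence held 4 CCAAT matches, 1 GC box and 1 TGACNNNGC match, whereas the Klf7 stretch held 1 GC box and 1 CACCC match. Over all 250 bases Klf7 had 0 CCAAT matches, 1 GC box and 2 CACCC matches. Of 33469 rat promoter windows of the same length, 34.0% held CCAAT, 30.5% GGGCGG, 49.2% CACCC and 10.1% TGACNNNGC, and 0.565% held 4 or more CCAAT. Klf9 had 3 CCAAT matches, a number reached or passed in 2.53% of the windows. Klf11 had 7 GC boxes, for which no share of windows is given. Klf3 had 4 CACCC matches and Klf8 had 3, more than Klf7. A match is a run of letters and not a measured binding site.

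After 4 h of DMF, Klf7 and Klf6 were lower than with DMSO while the DMF libraries of the other 8 members overlapped those of the vehicle. Klf7 (ENSRNOG00000046242, chromosome 9, 65437167 to 65526261 on mRatBN7.2) had 1099, 993.5 and 1027 normalized counts in the DMF libraries of replicates 1, 2 and 3, against 1771, 1930 and 2096 with DMSO. Normalized counts are read counts corrected for library size within the 6 libraries of one comparison, so the same library can have a slightly different value in another comparison. Every DMF library was below every DMSO library. The mean with DMF was 53.8% of the mean with DMSO (1040 ± 54.0 against 1932 ± 163, SD, n = 3 each), a log2 fold change (log2FC) of -0.89 with a standard error (SE) of 0.084. The log2 ratio within the experiments was -0.69, -0.96 and -1.03.

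Klf6 (ENSRNOG00000016885, chromosome 17, 64531463 to 64588570), the nearest relative of Klf7 in the family, had 580.2, 630.5 and 598.6 normalized counts with DMF for 4 h and 771.9, 1062 and 969.4 with DMSO. These libraries did not overlap either, and the log2FC was -0.62 (SE 0.12). Klf6 and Klf7 were thus the 2 of 10 members whose groups did not overlap, in a comparison in which 26.3% of all 14208 genes tested did not overlap, and nothing is read from that count because the set was chosen on this contrast. The other members had log2FC between -0.13 for Klf13 and 0.18 for Klf16. The median log2FC of the 10 members was 0.0046, beside 0.0022 over all genes.

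**Figure D1:**
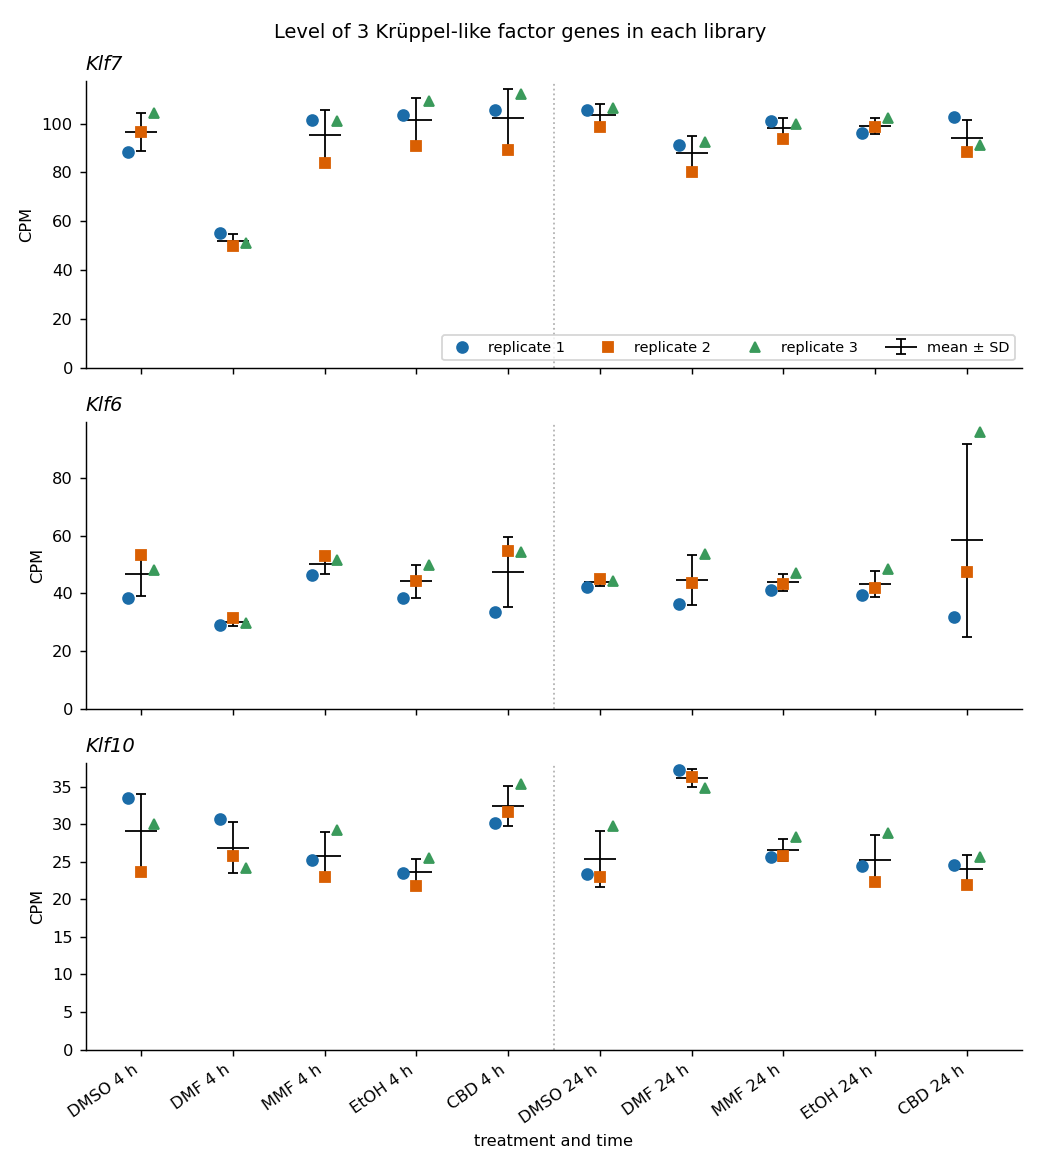
CPM (reads scaled to a common library size with TMM over all 30 libraries) of Klf7, Klf6 and Klf10 in each library of the 10 groups, with the group mean and SD. The 3 DMF libraries of 4 h lie lowest for Klf7 and Klf6, and the 3 DMF libraries of 24 h are among the 4 highest for Klf10.

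On a scale shared by all libraries, the low Klf7 level stood alone among the 10 groups. In CPM, reads scaled to a common library size with TMM over the 30 libraries, Klf7 averaged 52.0 with DMF at 4 h, followed by 88.1 with DMF at 24 h, 94.1 with CBD at 24 h, 95.4 with MMF at 4 h and 96.5 with DMSO at 4 h. The remaining groups were MMF at 24 h (98.1), EtOH at 24 h (99.0), EtOH at 4 h (101), CBD at 4 h (102) and DMSO at 24 h (104). In this order only the first step separated neighbouring groups: the highest DMF library of 4 h had 55.0 CPM and the lowest DMF library of 24 h had 80.3 CPM. The other 8 pairs of neighbours overlapped. For Klf6 the first step also separated the neighbours by mean, with 30.1 CPM for DMF at 4 h, where its highest library had 31.6 CPM, and 43.2 CPM for the next group, EtOH at 24 h, where the lowest library had 39.6 CPM. Single libraries of groups with higher Klf6 means came closer, at 31.9 CPM for CBD replicate 1 at 24 h and 33.5 CPM for CBD replicate 1 at 4 h. For the other 8 members none of the 9 neighbouring pairs was separate. The highest group mean was 1.99 times the lowest for Klf7, 1.94 times for Klf6, 1.53 times for Klf10 and between 1.18 and 1.35 times for the other 7.

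With MMF at the same concentration and time, the Klf7 libraries overlapped those of the vehicle. The MMF libraries of 4 h held 1843, 1524 and 1849 normalized counts of Klf7 against 1618, 1761 and 1912 with DMSO, a log2FC of -0.02 (SE 0.10). None of the 10 members had groups that did not overlap in this comparison, against 2.76% of all genes tested. Klf6 had a log2FC of 0.11 (SE 0.13). Set directly side by side, DMF against MMF at 4 h gave 1088, 982.5 and 1015 against 2003, 1657 and 2012 normalized counts of Klf7 (log2FC -0.87, SE 0.097) and 574.5, 623.6 and 591.4 against 913.3, 1048 and 1027 of Klf6 (log2FC -0.74, SE 0.088). Both genes were without overlap, as were 24.2% of all genes. These compounds, which differ by 1 methyl ester, were compared at 1 concentration each, and the 4 h values share libraries with the contrast that chose Klf7.

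**Figure D2:**
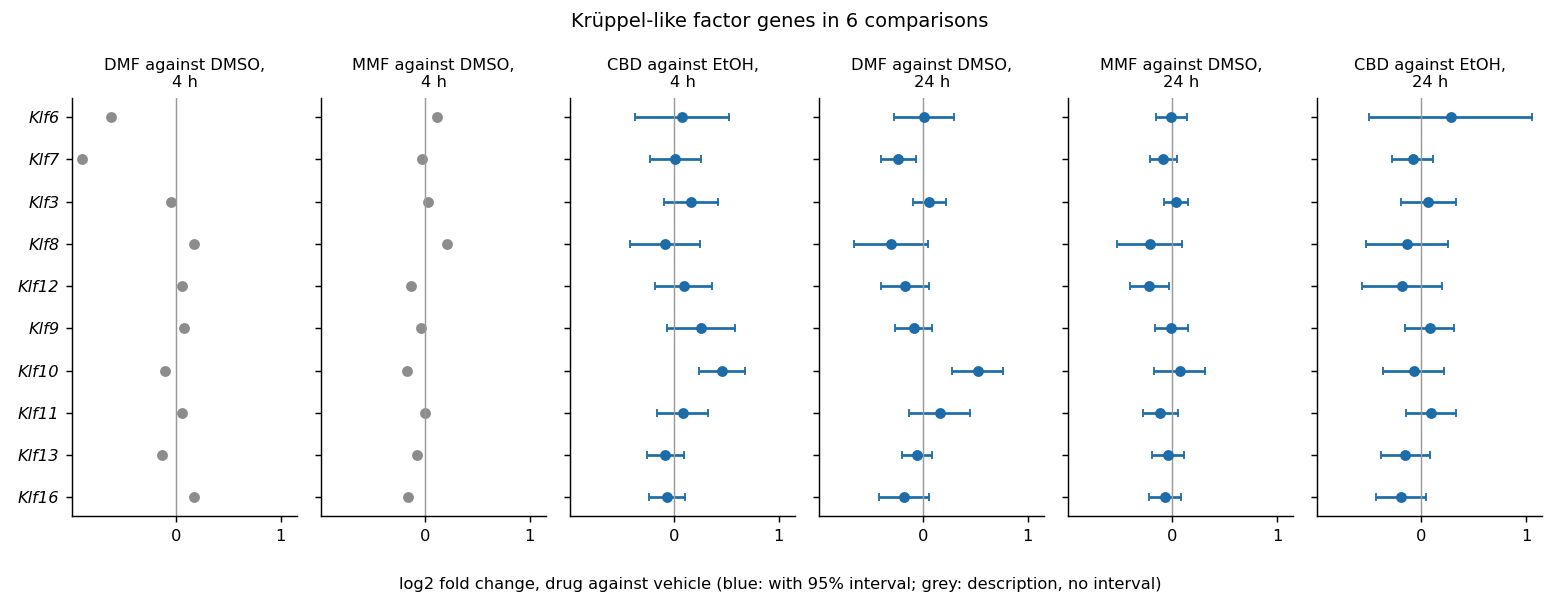
Log2 fold change (drug against its vehicle) of the 10 members in 6 comparisons, as grey points with no interval where the comparison chose the set or shares libraries with that choice, and as blue points with 95% intervals from limma elsewhere. The intervals that leave out 0 are those of Klf10 for CBD at 4 h and DMF at 24 h (above 0), and of Klf7 for DMF at 24 h and Klf12 for MMF at 24 h (below 0).

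By 24 h of DMF the members had a different order, with Klf10 raised and Klf7 only a little below its vehicle. Klf10 (ENSRNOG00000006118, chromosome 7, 69465619 to 69473994), the TGF-beta-inducible early gene, had 688.6, 672.5 and 642.6 normalized counts with DMF and 433.7, 422.4 and 548.2 with DMSO. Each DMF library was above all DMSO libraries, and the ratio was above 1 in 3 of 3 experiments. Klf10 rose by a log2FC of 0.52 (SE 0.11, 95% interval 0.28 to 0.77), from 468.1 ± 69.6 to 667.9 ± 23.4 (SD, n = 3 each), with an adjusted p of 0.0328 by limma. The call was lost when 1 library of DMF replicate 1 or 2, or of DMSO replicate 1 or 2, was left out (limma adjusted p 0.0888, 0.116, 0.158 and 0.120), while log2FC stayed between 0.45 and 0.52 in these fits.

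Klf7 at 24 h had 1687, 1486 and 1709 normalized counts with DMF and 1953, 1812 and 1965 with DMSO. The groups did not overlap and the DMF library was lower in 3 of 3 experiments, by a log2FC of -0.23 (SE 0.074, 95% interval -0.40 to -0.06). The difference did not pass the test without pairing (limma adjusted p 0.139), and passed it when the replicate number was fitted as a block (limma adjusted p 0.0184). The mean with DMF was 85.2% of the vehicle mean at 24 h, beside 53.8% at 4 h; the change between these was not tested, since the value at 4 h chose the gene. In the DMF libraries alone, Klf7 went from 1131, 1021 and 1052 normalized counts at 4 h to 1877, 1651 and 1905 at 24 h (log2FC 0.76, SE 0.084), and Klf6 from 597.0, 648.0 and 612.7 to 750.2, 899.2 and 1104 (log2FC 0.55, SE 0.13). Klf10 was the third member without overlap between these times (log2FC 0.43, SE 0.11), in a comparison in which 36.1% of all genes did not overlap. At 24 h Klf6 was at the level of its vehicle, with 674.3, 809.4 and 990.1 against 782.4, 825.2 and 820.4 normalized counts (log2FC 0.01, 95% interval -0.27 to 0.29, limma adjusted p 0.983).

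In all, 1 of 10 members passed the test after 24 h of DMF, beside 3.97% of 13967 genes tested, and 2 of 10 with the replicate block, beside 12.9%. The groups of 4 members did not overlap (22.8% of all genes): Klf10 above its vehicle, and Klf7, Klf8 and Klf9 below. Klf8, a CtBP-recruiting repressor, had 109.7, 84.74 and 114.6 against 134.0, 127.1 and 118.1 normalized counts (log2FC -0.30, limma adjusted p 0.369). Klf9 had 464.2, 473.7 and 443.1 against 504.5, 480.4 and 482.3 (log2FC -0.09, limma adjusted p 0.623). Neither passed. The median log2FC of the 10 members was -0.07, beside -0.0065 over all genes.

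The cultures treated with DMF for 24 h also differed in markers of other cells, in a comparison in which 3.97% of all genes passed by limma. All 5 genes of the proliferation list (Mki67, Top2a, Cdk1, Ccnb1, Birc5) fell, and their summed level was 72.8 to 87.9 CPM, against 178.9 to 197.6 CPM with DMSO. Of 7 genes of the oligodendrocyte lineage, Pdgfra, Cspg4 and Sox10 fell, with sums over the list of 586.3 to 741.3 CPM against 742.2 to 894.3 CPM. The summed level of 9 neuronal markers was 3334 to 4033 CPM against 4040 to 4400 CPM, with 0 of 9 passing the test. That of 6 astrocyte markers was 2705 to 4489 CPM against 2294 to 3808 CPM. This astrocyte sum was higher with DMF in each experiment (4130, 4489 and 2705 against 3255, 3808 and 2294 CPM). Aldh1l1, 1 of the 6, was lower. The part of these cells in the changes of Klf10 and Klf7 was not tested, and in bulk samples fewer cells of a type cannot be told apart from less RNA per cell. At 4 h the DMF libraries had neuronal sums of 3267 to 3732 CPM against 3680 to 4336 CPM with DMSO, and proliferation sums of 229.3 to 283.2 CPM against 200.6 to 257.1 CPM. Within each experiment the neuronal sum was lower and the proliferation sum higher with DMF at 4 h. Microglial markers summed to at most 9.54 CPM and endothelial markers to at most 4.06 CPM in any library, with Cldn5 at 0, so that the cultures labelled as hippocampal neurons held transcripts of astrocytes and the oligodendrocyte lineage and few of microglia.

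With MMF for 24 h, Klf10 did not pass the test. The MMF libraries held 496.3, 500.0 and 545.7 normalized counts against 456.3, 443.7 and 575.7 with DMSO (log2FC 0.07, 95% interval -0.17 to 0.31, limma adjusted p 0.968). In the direct comparison of the fumarates at 24 h, Klf10 had 761.2, 743.4 and 709.2 normalized counts with DMF and 523.4, 525.4 and 574.3 with MMF. The groups did not overlap, and Klf10 was higher with DMF in 3 of 3 experiments by a log2FC of 0.45 (SE 0.079, 95% interval 0.27 to 0.63, limma adjusted p 0.0200). This call too was lost without DMF replicate 1 or 2 or MMF replicate 1 or 2 (limma adjusted p 0.0561, 0.0839, 0.116 and 0.0884).

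Klf7 did not pass in the same comparison. It had 1864, 1643 and 1886 normalized counts with DMF for 24 h and 2061, 1905 and 2026 with MMF, without overlap, and the log2FC of -0.15 had a 95% interval of -0.32 to 0.02 (limma adjusted p 0.336). Klf10 was the 1 member of 10 that passed, beside 3.56% of 14233 genes, and Klf7 and Klf10 were the 2 members without overlap, beside 22.7%. For the 9 members that did not pass, the 95% intervals reached from -0.49 to 0.57 on the log2 scale at their widest. Differences between the fumarates of up to that size were thus not excluded for the noisiest members.

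For MMF against DMSO at 24 h, 0 of 10 members passed limma's test, beside 0.00707% of 14137 genes, and 1 member had an unadjusted p under 0.05. With edgeR (beside 0.00707%), DESeq2 (beside 0.0566%) and the replicate block (beside 1.38%) the number was also 0. Klf12 was that member, with 281.4, 294.6 and 274.2 against 329.0, 312.8 and 346.0 normalized counts (log2FC -0.22, 95% interval -0.40 to -0.03, limma adjusted p 0.952). Klf12 and Klf11 were the 2 members without overlap, beside 9.73% of all genes. Klf7 had 1954, 1813 and 1925 against 2054, 1903 and 2064 normalized counts (log2FC -0.08, 95% interval -0.21 to 0.05, limma adjusted p 0.952).

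**Figure D3:**
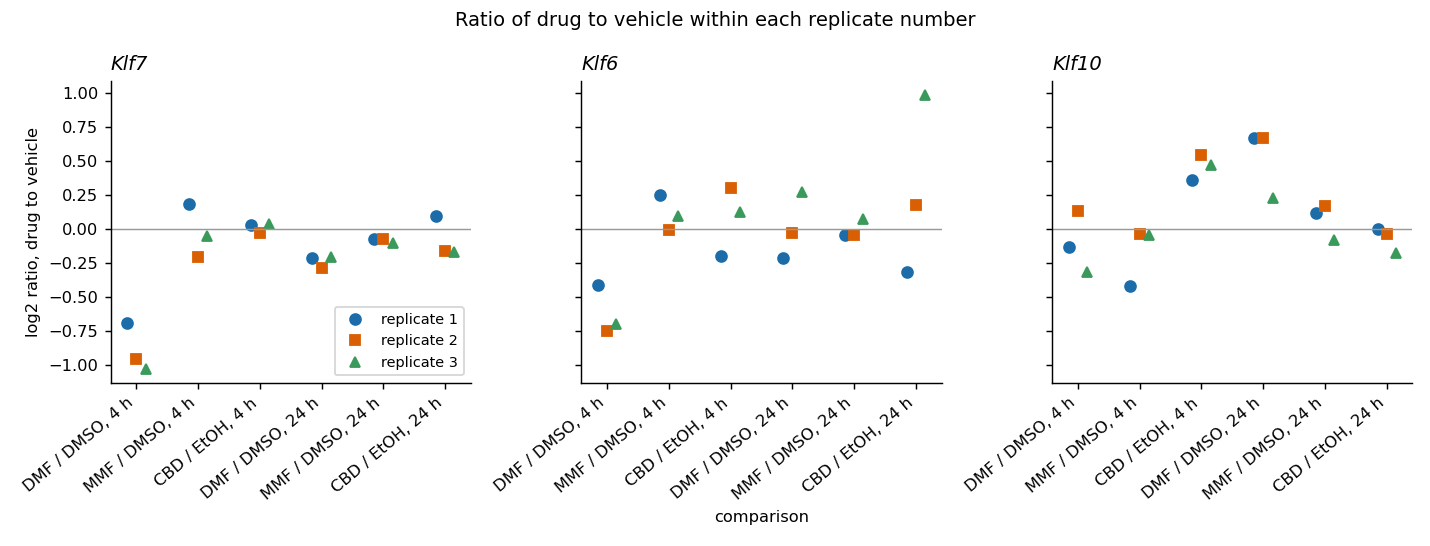
Log2 ratio of drug to vehicle within each replicate number for Klf7, Klf6 and Klf10 in 6 comparisons. The 3 ratios of Klf7 lie between -0.69 and -1.03 for DMF at 4 h, those of Klf10 are all above 0 for CBD at 4 h and DMF at 24 h, and replicate 3 of CBD at 24 h stands alone for Klf6.

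After 4 h of CBD, Klf10 was above its vehicle in every experiment, and Klf7 was near it. Klf10 had 591.4, 622.1 and 694.4 normalized counts with CBD and 460.5, 425.8 and 499.9 with EtOH. The groups did not overlap and CBD was higher in 3 of 3 experiments, with a log2FC of 0.46 (SE 0.095, 95% interval 0.24 to 0.68). Without pairing the adjusted p over all genes was 1.00 by limma (unadjusted 0.00144), and with the replicate block it was 0.000806 by limma. With that block 1 of 10 members passed, beside 2.33% of 14193 genes, and without it 0 of 10, beside 0.00705%; by edgeR (beside 0.00705%) and DESeq2 (beside 0.137%) the number was 0, and 1 member had an unadjusted p under 0.05 by limma. Klf10 was the only member without overlap, beside 9.95% of all genes. In CPM, EtOH at 4 h had the lowest Klf10 mean of the 10 groups (23.6). The CBD libraries of 4 h, at 30.2, 31.7 and 35.4 CPM, overlapped those of the other vehicle, DMSO at 4 h, at 33.5, 23.6 and 30.0 CPM. The part of a low vehicle group in the Klf10 difference was not tested.

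Klf7 had 2067, 1749 and 2202 normalized counts with CBD for 4 h and 2024, 1781 and 2148 with EtOH. The groups overlapped, and the log2FC of 0.01 had a 95% interval of -0.23 to 0.25 (limma adjusted p 1.00). After 24 h of CBD, Klf7 had 1935, 1672 and 1723 against 1815, 1871 and 1937 (log2FC -0.08, 95% interval -0.27 to 0.12, limma adjusted p 0.779).

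After 24 h of CBD, Klf10 was back among its vehicle values, with 462.9, 414.0 and 484.3 against 462.2, 424.5 and 546.4 normalized counts (log2FC -0.07, 95% interval -0.36 to 0.22, limma adjusted p 0.880). The change of the CBD effect from 4 to 24 h was -0.53 on the log2 scale (SE 0.16, unadjusted p 0.00579, adjusted p 0.999 by limma and 0.105 with the replicate block), so a difference between the times was not shown. For this difference 0 of 10 members passed by limma and edgeR (beside 0% of genes each), by DESeq2 (beside 0.136%) and with the block (beside 0.0552%), and 1 had an unadjusted p under 0.05. At 24 h the CBD effect on Klf10 was lower than the DMF effect by 0.59 on the log2 scale (SE 0.17); this difference did not pass without the block (limma adjusted p 0.200) and passed with it (limma adjusted p 0.0367), as 1 of 10 members against 2.58% of 14313 genes. Without the block 0 of 10 members passed, beside 0.391% of genes by limma, 0.412% by edgeR and 1.83% by DESeq2, and 1 had an unadjusted p under 0.05. The same difference for Klf7 was 0.15 (95% interval -0.08 to 0.39, limma adjusted p 0.742).

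None of the 10 members passed the test for CBD against EtOH at 24 h, beside 0.114% of 14079 genes by limma, 0.0852% by edgeR, 1.14% by DESeq2 and 0.504% with the replicate block, and none had an unadjusted p under 0.05. None was without overlap, beside 15.9% of all genes. Klf6 was the most spread member here, with 601.5, 898.0 and 1814 normalized counts with CBD against 748.0, 794.3 and 914.6 with EtOH (log2FC 0.28, SE 0.34, limma adjusted p 0.804). The CBD library of replicate 3 alone carried the higher mean, and with 96.1 CPM it had the highest Klf6 level of all 30 libraries. That library was also apart in Klf4, a family member that limits axon growth, at 7.23 CPM against 1.46 and 3.81 CPM in the other CBD libraries. Its read counts, taken over the kept genes together, stood apart as well. The chi-square per degree of freedom between read counts of 2 libraries was 51.6 for CBD replicates 1 and 3. It was 32.3 for replicates 2 and 3 and 14.5 for replicates 1 and 2. Replicate 3 stood apart in other groups too, as with DMF at 4 h (25.0 and 24.6 in pairs with replicate 3, 10.3 without). This was not so with DMSO at 24 h (5.72 and 11.4, against 6.64) or MMF at 4 h (31.4 and 15.1, against 18.7). In every group replicate 3 had the lowest sum of astrocyte markers (with CBD at 24 h 1927 CPM, against 4105 and 3635 CPM). With libraries left out of the comparison of CBD against EtOH at 24 h, the number of members passing was also 0. In the same comparison the GABA-synthesis genes Gad1 and Gad2 of the neuronal list fell.

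No member passed a test of culture time or solvent where one was run. Contrasts with DMF or DMSO libraries of 4 h were not tested, since those libraries chose the set. From 4 to 24 h, 0 of 10 members passed limma's test with MMF, CBD or EtOH, beside 0% of all genes in each by limma and edgeR. The same held by DESeq2 (beside 0.419%, 0.448% and 0%) and with the replicate block (beside 1.82%, 0.0142% and 1.05%), and the numbers with an unadjusted p under 0.05 were 1, 1 and 0. Klf7 differed between the times by 0.05 with MMF, -0.12 with CBD and -0.03 with EtOH on the log2 scale, and its libraries overlapped. Klf10 had a log2FC of -0.44 from 4 to 24 h of CBD, without overlap (467.7, 417.3 and 488.5 against 575.0, 606.9 and 678.4 normalized counts, limma adjusted p 0.580); it was the 1 member without overlap, beside 13.3% of genes. With MMF the members without overlap were Klf9 (log2FC 0.21, limma adjusted p 0.469) and Klf12 (log2FC 0.22, limma adjusted p 0.520), beside 18.2% of genes, and with EtOH it was Klf11 (log2FC -0.14), beside 7.74%. DMSO against EtOH at 24 h gave 0 of 10 passing by limma and edgeR (beside 0% of genes each), DESeq2 (beside 0.0357%) and the block (beside 0.486%), and 0 with an unadjusted p under 0.05. Klf7 had 1953, 1814 and 1966 with DMSO against 1765, 1825 and 1876 with EtOH (log2FC 0.07, 95% interval -0.08 to 0.21). Klf11 was without overlap there, beside 9.86% of genes, higher with DMSO by 0.11 on the log2 scale, whereas at 4 h it was lower with DMSO by a log2FC of -0.14, beside 9.39%. At 4 h Klf10 averaged 29.1 CPM with DMSO and 23.6 CPM with EtOH, and these libraries overlapped. In the DMSO cultures Klf8, Klf12 and Klf16 were without overlap between the times (log2FC 0.33, 0.30 and 0.21), beside 15.8% of genes, and Klf7 changed by 0.10.

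Over the 30 libraries, Klf6 was the member whose level followed Klf7 most closely. After the mean of each replicate number was taken out, the Pearson correlation of log2 CPM with Klf7 was 0.553 for Klf6, 0.352 for Klf13 and 0.218 for Klf3, and between -0.164 and 0.139 for the other 6. Among 14930 genes the 5 most like Klf7 were B4galt7 (0.954), a galactosyltransferase of the glycosaminoglycan linker, Zfp608 (0.947), a zinc finger gene, Exoc7 (0.940), a subunit of the exocyst, Fam181a (0.936) and Foxo1 (0.933), a forkhead transcription factor. Nothing is read from their shared low group, since the 5 genes were chosen by likeness to Klf7. Each had its lowest group mean with DMF at 4 h. Zfp608 averaged 42.5 CPM there and 71.4 CPM with DMSO at 4 h, B4galt7 18.0 and 31.0 CPM, and Fam181a 2.74 and 9.78 CPM. These correlations are a description over libraries that share experiments and one low group. Only 2 of the 5 were among the 5 most alike when the replicate means were left in, and all 5 kept their ranks with median-ratio scaling.

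**Figure D4:**
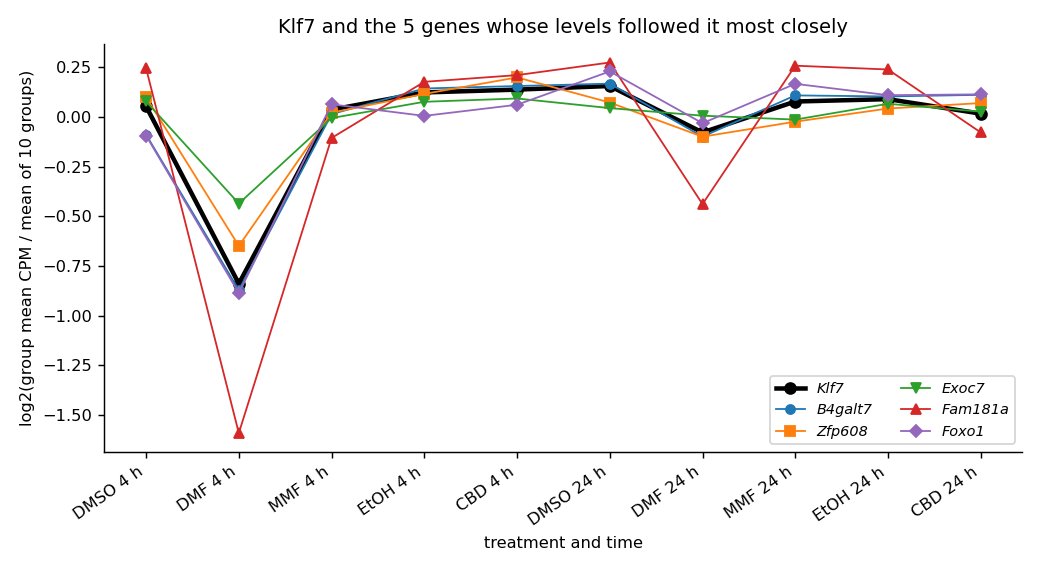
Log2 of the group mean CPM relative to the mean of the 10 groups, for Klf7 and the 5 genes most correlated with it over the 30 libraries. All 6 genes have their lowest value with DMF at 4 h, where Fam181a (2.74 CPM against 9.78 CPM with DMSO) drops furthest. Nothing is read from this shared low group, since the 5 genes were chosen by that correlation.

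Of the 7 other genes of the family, 6 were expressed well enough to be tested and Klf17 was not. After 24 h of DMF 3.97% of all genes passed by limma and 12.9% with the replicate block. Of the 6 other family genes 0 passed (median log2FC 0.12). With the block Klf14 passed, a Sin3A-recruiting member best known for metabolic genes. Klf14 had 3.22, 3.70 and 3.99 CPM with DMF for 24 h and 1.18, 2.05 and 2.23 CPM with DMSO, without overlap (beside 22.8% of all genes), and in normalized counts 67.2 ± 7.17 against 33.5 ± 10.3 (log2FC 1.03, SE 0.26, limma adjusted p 0.0703, with the block 0.00984). At 4 h of DMF, in the contrast that chose the set, all 6 had a log2FC below 0, from -1.07 for Klf14 to -0.07 for Klf1. Klf15, named after its values were seen, was a glucocorticoid-responsive member without overlap there (beside 26.3% of all genes, with nothing read from it), with 10.8, 13.9 and 9.94 CPM against 17.0, 19.1 and 16.8 CPM. The SP factors, which bind the same GC boxes, had 0 of 6 tested genes passing after 24 h of DMF, with the block as well, and a median log2FC of -0.01, from -0.16 for Sp1 to 0.17 for Sp8. Of the 11 cofactors (the CtBP and Sin3 proteins, histone deacetylases, histone chaperones and acetyltransferases), 0 passed (median log2FC -0.06), and with the block Hdac2 was lower (2333 ± 114 against 2673 ± 172 normalized counts, log2FC -0.20, limma adjusted p 0.189, with the block 0.0370).

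Of 14 axon growth and regeneration-associated genes, 12 were tested after 24 h of DMF, and 3 rose and 0 fell, beside 3.97% of all genes called, with a median log2FC of 0.01 over the list. Cdkn1a, the cell cycle inhibitor p21 and a target of several Krüppel-like factors, rose from 344.2 ± 37.1 to 1181 ± 248 normalized counts (log2FC 1.76, limma adjusted p 0.000638). The injury-induced transcription factors Atf3 (log2FC 2.25, limma adjusted p 0.0197) and Jun (log2FC 0.95, limma adjusted p 0.00948) rose too. Gap43, a growth cone protein, had 5580 ± 438 against 6899 ± 343 normalized counts (log2FC -0.31) and passed only with the block (limma adjusted p 0.0596, with the block 0.00286). The same 3 genes were higher with DMF than with MMF at 24 h, beside 3.56% of all genes called. With CBD, 0 of 12 passed at 24 h by limma, beside 0.114% of all genes. At 4 h Atf3 and Stat3 were higher with the block only, where 2.33% of all genes passed, beside 0.00705% without it. Atf3 had 194.9 ± 118.8 normalized counts with CBD and 44.4 ± 5.78 with EtOH there. Between the vehicles at 4 h it had 128.7 ± 50.0 with DMSO and 43.0 ± 5.64 with EtOH. The part of a low vehicle group in the Atf3 difference was not tested.

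The lists set beside single members gave few calls. After 24 h of DMF 3.97% of all genes passed by limma and 12.9% with the block. Of 5 TGF-beta early-response genes, listed beside Klf10 and Klf11, 0 passed after 24 h of DMF, and with the block Tgif1 (log2FC 1.02, limma adjusted p 0.110, with the block 0.0370) was higher. Smad7 (log2FC -0.04), Skil (-0.09) and Ski (0.07) were near their vehicle. Of 4 glucocorticoid-responsive genes, listed beside Klf9, 0 passed (median log2FC 0.13, from 0.02 for Fkbp5 to 0.23 for Sgk1). Of 5 Nrf2 target genes, 4 rose (Hmox1, Nqo1, Txnrd1 and Srxn1).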

How the data were processed

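Poly(A) RNA-seq of 30 libraries was analysed. Per the labels and the study's methods, the authors used FastQC 0.12.1 for quality control, Cutadapt 4.4 together with Trimmomatic 0.39 for trimming, HISAT2 2.2.1 for alignment to the rat build mRatBN7.2 and HTSeq 2.0.3 for counts per gene, and normalized the counts with DESeq2 1.40.2 in R 4.3.1; the strand setting of the counting was not given in the sources used here, so reads of antisense genes cannot be told apart. The deposited values are signal values, that is read counts divided by a size factor within the 6 libraries of a table; 15 tables were used and 4 (CBD against DMF or MMF) were not. The authors' fold changes and p-values in these tables were not used. Whole reads were recovered for 100% of values (relative tolerance 0.0001), and 0 values differed between tables.

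Groups came from sample titles. limma 3.58.1 (empirical Bayes with a mean trend) was run in R 4.3.3 on log2(normalized count + 1) of 2 groups at a time, with genes kept by edgeR's filterByExpr; p-values were adjusted by Benjamini-Hochberg across every gene in the fit, and the threshold was an adjusted p of 0.05. Effects were compared on recovered reads scaled over 12 libraries. All 10 members passed the filter in every comparison. Replicate numbers were taken to stand for 3 independent experiments. Deviations of libraries with the same number were correlated in all 15 comparisons (0.131 to 0.676, and between different numbers at most 0.184). For DMSO at 24 h against 4 h, the lowest same-number value (0.158) was below the highest between different numbers. The blocked fit rests on this pairing and is given where it changed a call. Intervals are 95%. The script was tested on simulated data that held no effect of the replicate number, so that test says nothing about the pairing. Alternatives were edgeR 4.0.16, DESeq2 1.42.0, TMM scaling, no filter, a pseudocount of 0.1, the spread of all 30 libraries, the block, and leaving out libraries; leaving out all libraries numbered 3 was added after seeing the data. The members, lists and tests were chosen with earlier results of these data known. Named are all 10 members, the 5 genes most like Klf7, and of each list up to 4 genes with the smallest p for DMF at 24 h or those past the threshold in a tested comparison. Levels were not compared between genes, since no gene lengths were used. Some genes of the lists are not reported here.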

Additional observations from a re-analysis of the deposited data

How the results depend on the processing

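The replicate block changed the number of members passing from 0 to 1 for CBD against EtOH at 4 h (Klf10), from 1 to 2 for DMF against DMSO at 24 h (Klf7 in addition to Klf10) and from 0 to 1 for the CBD effect less the DMF effect at 24 h (Klf10); it changed no other call among the members. With 1 library, or all libraries numbered 3, left out, the number passing was 0 to 2 for DMF against DMSO at 24 h and 0 to 1 for DMF against MMF at 24 h, where fewer samples entered the fit. The log2FC of Klf10 was 0.45 to 0.67 in these fits for DMF against DMSO and 0.42 to 0.52 for DMF against MMF. Under the other 7 settings it was 0.52 (limma, edgeR or DESeq2 adjusted p 0.00205 to 0.0344) and 0.44 to 0.45 (adjusted p 0.00127 to 0.0411). Near 0, Klf7 changed sign with libraries left out: the range was -0.063 to 0.11 for CBD at 4 h (-0.012, -0.058 and -0.063 without CBD replicate 1, CBD replicate 3 and EtOH replicate 2), -0.047 (without MMF replicate 2 of 4 h) to 0.091 for MMF 24 h against 4 h, and -0.11 to 0.030 (without EtOH replicate 3 of 4 h; 0.0071 without all libraries numbered 3) for EtOH 24 h against 4 h. With no replicate block, 2 of the 5 genes most like Klf7 stayed among the first 5. With 3 libraries a group, SEs of members were 0.051 to 0.38 on the log2 scale between 2 groups, which limits what could be detected for the noisiest, Klf6 with CBD.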
